A study of Homo sapiens with 6 samples.

Results

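The genes described here encode the enzymes that add marks to histones and DNA or take them off. They were chosen by gene symbol alone and comprised the KDM histone demethylases, the KMT, EZH, EHMT and SUV39H histone methyltransferases, the KAT histone acetyltransferases with CREBBP and EP300, the zinc-dependent HDAC deacetylases, the sirtuins, the DNMT DNA methyltransferases and the TET dioxygenases. Of the 58735 genes in the count table, 65 matched. They were 18 demethylases, 14 histone methyltransferases, 9 acetyltransferases, 11 zinc-dependent deacetylases, 7 sirtuins, 3 DNA methyltransferases and 3 TET dioxygenases.

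RNA-Seq had been carried out on the cell line BT549, derived from a basal-like breast cancer, to find direct and indirect target genes of FOXO1. The groups were 3 libraries from cells given the vehicle DMSO and 3 from cells given AS1842856, a small molecule that binds unphosphorylated FOXO1 and blocks its binding to DNA, each for 48 h. The paper proposes that AS1842856 modulates FOXO1 rather than only inhibiting it. In BT549 and U87MG cells, RNA interference against FOXO1 lowered LEF1, which the drug raised. The sample labels give the AS1842856 dose as 200 nM, while the paper's text gives a higher dose, and this was not resolved here. Libraries were lettered A, B and C in each group, and the paper calls them biological replicates.

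Chromatin marks are set by opposing enzymes. Acetyltransferases and deacetylases add and remove acetyl groups on histone lysines, which generally accompany active genes. Methyltransferases and demethylases act on particular lysines, and the same chemical group can accompany active genes at H3K4 and silent genes at H3K9, H3K27 or H4K20. DNMT1 copies DNA methylation onto newly made DNA, DNMT3A and DNMT3B place it on unmethylated DNA, and the TET enzymes oxidise it. Several of these enzymes are drug targets in cancer, and EZH2 and LSD1 (KDM1A) are often abundant in breast tumours.

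Library totals ran from 15289500 to 22981832 counts. After genes with few reads were removed, 14338 genes holding 99.9% of the counts were tested in edgeR (quasi-likelihood test, Benjamini-Hochberg adjustment over all of them), and a gene with an adjusted p under 0.05 is referred to as called. Levels are given in library order A, B and C as CPM, TMM-scaled counts relative to the library total. All 8 markers of BT549 and mesenchymal breast cancer cells were measured, with a summed level of 5033 to 5170 CPM in DMSO and 4334 to 4387 CPM with AS1842856. The 10 luminal breast markers summed to 129 to 133 CPM in DMSO and 75.2 to 83.5 CPM with AS1842856, and the defining ESR1, PGR, CDH1 and EPCAM were below the filter. Markers moved in opposite directions within these sums, with KRT8 at 40.9 CPM in DMSO and 4.15 CPM with AS1842856 and GATA3 at 50.9 and 61.7 CPM among the luminal genes, and AXL at 423 and 135 CPM and FN1 at 450 and 981 CPM among the mesenchymal genes. The 6 immune markers summed to at most 2.28 CPM in DMSO and 4.71 CPM with AS1842856, with CD3E at 0. PTPRC was the only immune marker to pass the filter, and it was called higher. It read 0.700 to 1.56 CPM in DMSO and 2.64 to 3.59 CPM with AS1842856, with no overlap. Its log2 fold change was 1.48 (edgeR, Benjamini-Hochberg adjusted p = 4.99e-07). Of the endothelial and erythroid markers, 4 of 6 were at 0 in every library. In bulk RNA, fewer cells of a type and less RNA per cell cannot be told apart.

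Of the 65 genes, 63 passed the filter on low counts. SIRT4, a mitochondrial sirtuin, did not pass, with 14, 6 and 1 counts in the DMSO libraries and 6, 10 and 10 counts with AS1842856. KDM5D, a histone H3K4 demethylase gene of the Y chromosome, did not pass either, with 0 counts in every library. Of the 63 genes tested, 37 (58.7%) were called, against 56.0% of all genes tested. Among genes that passed the filter, the enzymes were thus called about as often as other genes. They divided into 18 higher and 19 lower with AS1842856, where 27.6% of all genes tested were called higher and 28.4% lower. With no filter, edgeR called 54.7% of 64 enzymes against 28.4% of 27508 genes, and over the 14338 genes of the filtered fit the same test gave 55.6% of the 63 enzymes against 52.1%. Their median log2 fold change was -0.018, and that of all genes tested was 0.0030.

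The changes of the enzymes were mostly small. Of the 37 called genes, 17 changed by less than 0.25 on the log2 scale, 10 by 0.25 to 0.5 and 10 by 0.5 or more. These last 10 were 15.9% of the 63, where 23.4% of all genes tested were called at that size. DNMT3B and KMT5C, both lower, were the only enzymes called with a change of at least 1, which made 3.17% of the 63 against 10.6% of all genes tested. The median size of change was 0.179 over the 63 enzymes and 0.263 over all genes tested. These comparisons of size were not matched for level. A filter on a mean of at least 50 counts kept 61 of the 63 enzymes but 11446 of the 14338 genes. In 43 enzymes (68.3%) the libraries of the groups did not overlap, against 59.9% of all genes tested.

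**Figure D1:**
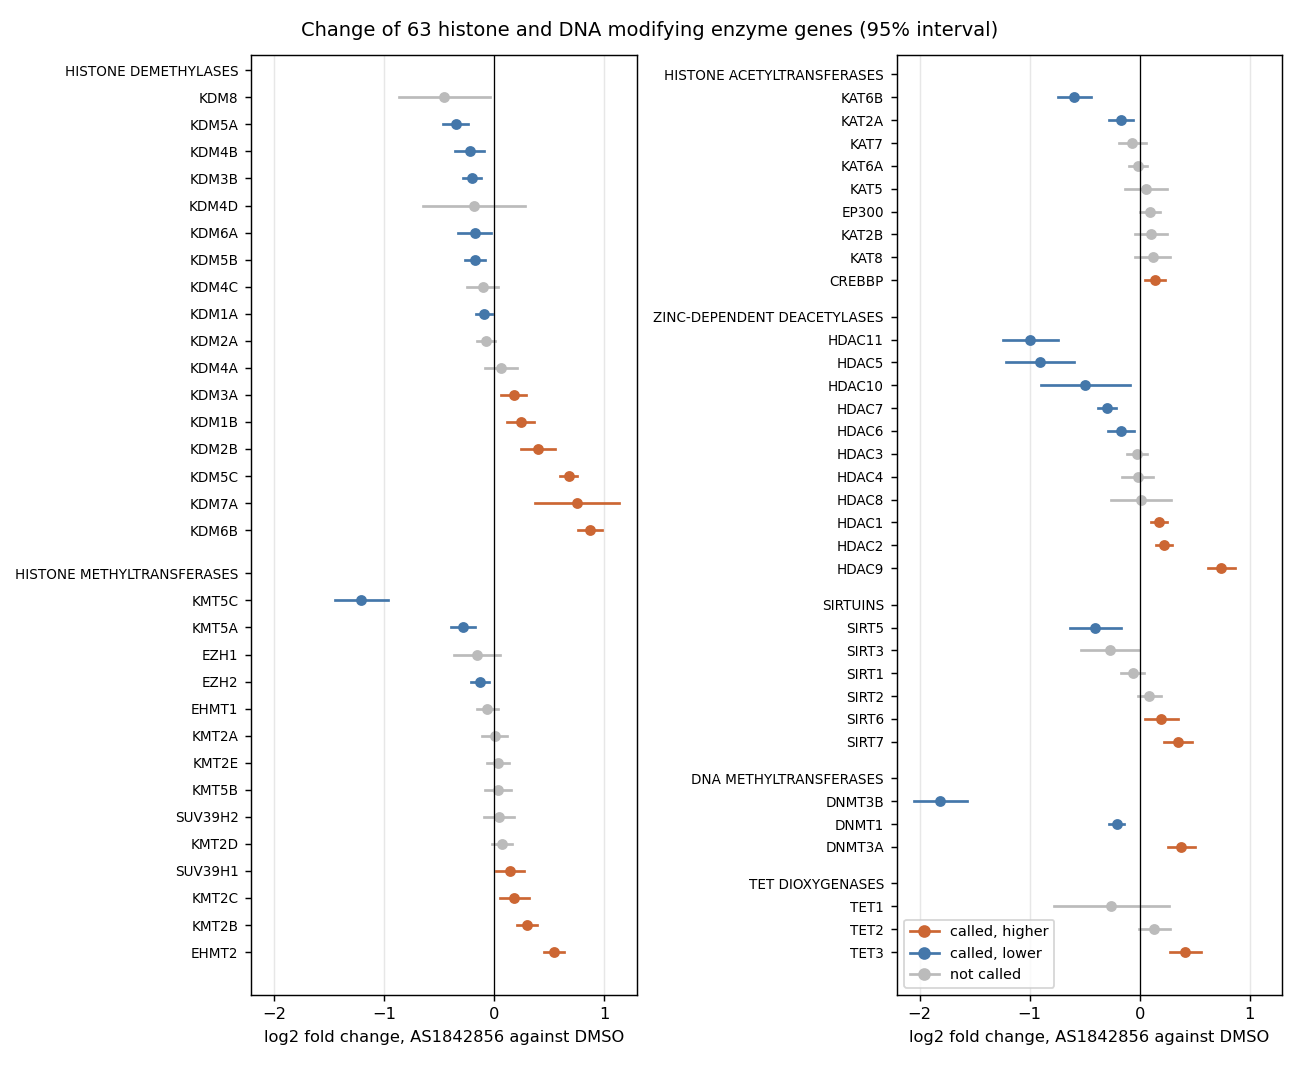
Log2 fold change (x axis) of each of the 63 tested enzyme genes (y axis, by family), with AS1842856 against DMSO. Points are edgeR estimates and lines are 95% intervals, with 18 genes called higher in orange, 19 called lower in blue and 26 not called in grey, and DNMT3B stands farthest from 0 at -1.81.

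The DNA methyltransferases moved in different directions. DNMT3B (ENSG00000088305, GRCh38 chromosome 20 from 32762385 to 32809356, plus strand), which places new DNA methylation, stood at 18.9, 18.2 and 16.4 CPM in the DMSO libraries and at 5.46, 4.64 and 5.22 CPM with AS1842856. All AS1842856 libraries lay below all DMSO libraries. The log2 fold change of -1.81 (standard error 0.12, edgeR, Benjamini-Hochberg adjusted p = 3.97e-35) left 28.5% of the DMSO level, and it was the largest change among the 63 enzymes. DNMT3A, its close relative on chromosome 2, was at 37.3, 33.7 and 42.7 CPM in DMSO and at 46.3, 51.2 and 50.4 CPM with AS1842856. The groups did not overlap here either, and the log2 fold change was 0.38 (standard error 0.06, edgeR, Benjamini-Hochberg adjusted p = 3.60e-08).

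DNMT1, the maintenance enzyme and the most abundant DNA methyltransferase gene, read 341, 337 and 353 CPM in DMSO and 291, 304 and 296 CPM with AS1842856. It fell by 0.21 on the log2 scale (edgeR, Benjamini-Hochberg adjusted p = 5.54e-08) with no overlap between groups. Per length, DNMT1 had 34.8 ± 0.868 FPKM in DMSO (SD, n = 3) and 30.1 ± 0.647 FPKM with AS1842856, well above either DNMT3 gene. Counting DNMT3A and DNMT3B together, their summed FPKM went from 6.96 to 5.17, and the share of DNMT3A in that sum went from 45.0% ± 4.51 to 78.8% ± 2.21 (SD, n = 3 per group). By FPKM, DNMT3B was thus the larger of the pair on average in DMSO, and DNMT3A in all 3 AS1842856 libraries. FPKM divides by all annotated exon bases, 12020 for DNMT3A and 4630 for DNMT3B, so the order in DMSO depends on these lengths. In CPM, DNMT3A was the higher in DMSO too (37.9 against 17.8 on average).

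Of the TET dioxygenases, TET3 alone was called. It read 29, 26.6 and 27.6 CPM in DMSO and 36.1, 37.8 and 37.2 CPM with AS1842856, with no overlap and a log2 fold change of 0.41 (edgeR, Benjamini-Hochberg adjusted p = 5.33e-08). TET2 had a log2 fold change of 0.13 with a 95% interval from -0.01 to 0.27, and TET1 one of -0.26 from -0.78 to 0.26. TET1 was the least abundant of the 63 enzyme genes at 0.233 FPKM in DMSO.

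**Figure D2:**
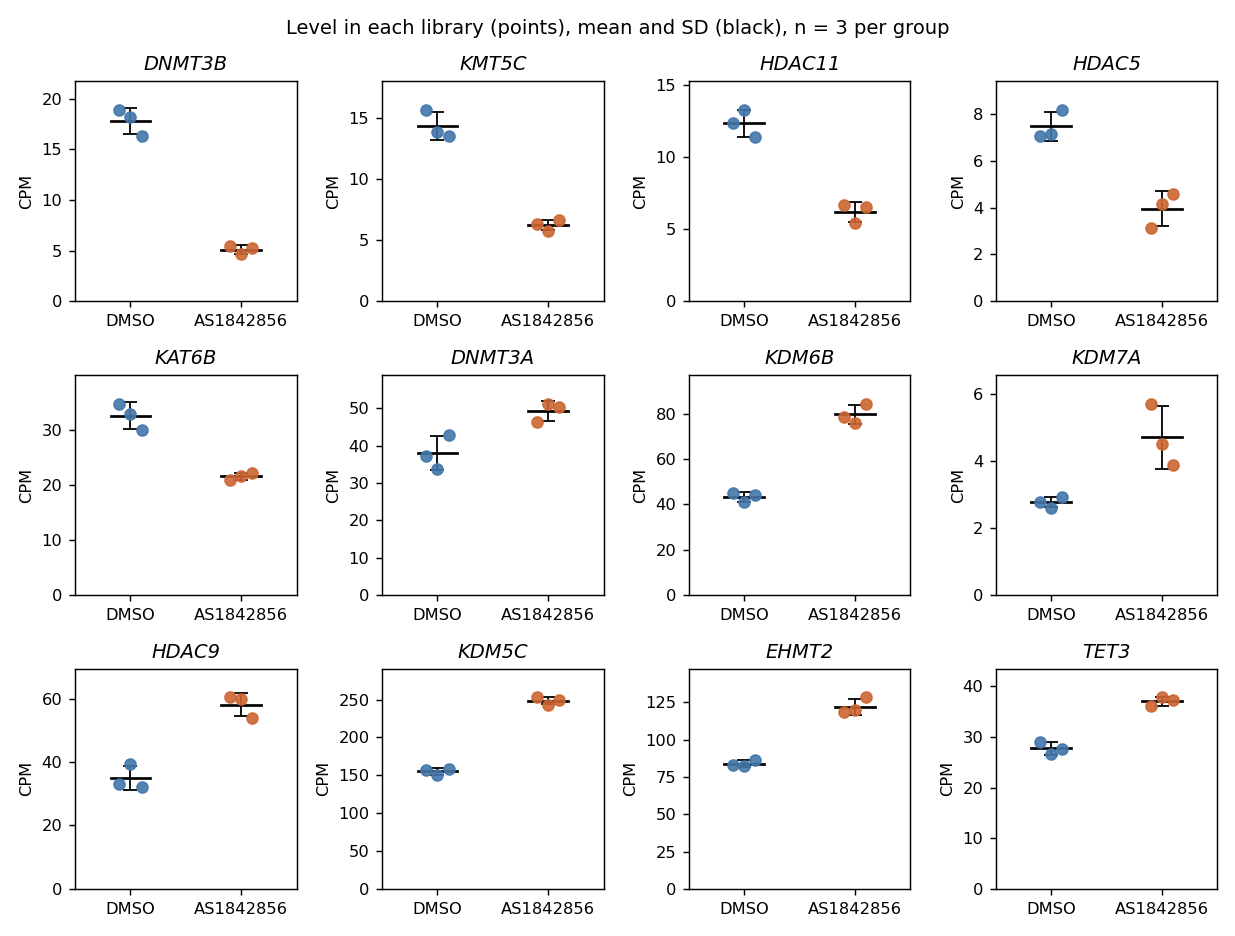
CPM after TMM scaling (y axis, from 0) of 12 enzyme genes in each of the 3 DMSO (blue) and 3 AS1842856 (orange) libraries, with the mean and SD in black. In each panel the groups do not overlap, as for DNMT3B with 16.4 to 18.9 CPM in DMSO and 4.64 to 5.46 CPM with AS1842856.

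Among the 17 histone demethylase genes tested, 6 were called higher, 6 lower and 5 were not called. The 3 largest changes were rises. KDM6B (JMJD3), which removes methyl groups from H3K27, was at 45.2, 40.9 and 44.0 CPM in DMSO and at 78.6, 75.9 and 84.5 CPM with AS1842856. The groups lay far apart, and the log2 fold change of 0.87 (standard error 0.05, edgeR, Benjamini-Hochberg adjusted p = 1.50e-38) was the largest rise of the 63 enzymes. KDM6A (UTX), which acts on the same mark, was called lower with a log2 fold change of -0.18 (edgeR, Benjamini-Hochberg adjusted p = 0.0341). This call was lost in DESeq2 (adjusted p = 0.118) and without DMSO replicate B, DMSO replicate C, AS1842856 replicate A or AS1842856 replicate C (0.0675 to 0.110). KDM6B went from 58.7% ± 2.06 to 74.8% ± 1.92 (SD, n = 3 per group) of the FPKM of the pair.

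KDM5C, an X-chromosome gene for a demethylase of H3K4, had 157, 150 and 159 CPM in DMSO and 253, 244 and 249 CPM with AS1842856. Its log2 fold change was 0.67 (standard error 0.04, edgeR, Benjamini-Hochberg adjusted p = 4.26e-44), which was the smallest p of the 63 enzymes, and the groups did not overlap. Its relatives KDM5A and KDM5B act on the same lysine and were both called lower. KDM5A was at 55.5, 58.1 and 56.0 CPM in DMSO and at 38.5, 48.0 and 45.6 CPM with AS1842856, with a log2 fold change of -0.35 (edgeR, Benjamini-Hochberg adjusted p = 3.80e-08). It shares exon bases with CCDC77, which had 51.3% as many counts and a log2 fold change of -0.14. The summed FPKM of the 3 genes went from 26.3 to 35.4, and the share of KDM5C from 67.4% ± 0.521 to 80.0% ± 1.20 (SD, n = 3 per group).

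KDM7A, which demethylates H3K9 and H3K27, was a gene of low level at 2.78, 2.60 and 2.91 CPM in DMSO and 5.70, 4.51 and 3.87 CPM with AS1842856. The AS1842856 libraries were all higher but spread widely, and the log2 fold change was 0.75 (standard error 0.19, edgeR, Benjamini-Hochberg adjusted p = 3.85e-04). KDM1A (LSD1), which removes methyl groups from H3K4 without a JmjC domain, was the demethylase gene of highest level per length. It read 269, 250 and 264 CPM in DMSO and 246, 249 and 239 CPM with AS1842856, a log2 fold change of -0.09 (edgeR, Benjamini-Hochberg adjusted p = 0.0246). That call was lost without DMSO replicate A, DMSO replicate C or AS1842856 replicate C, with adjusted p between 0.0664 and 0.115.

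The other demethylase genes called higher were KDM2B, KDM1B and KDM3A, with log2 fold changes of 0.39, 0.24 and 0.17. KDM2B, which brings a Polycomb complex to CpG islands, shares exon bases with RNF34, which had 122% as many counts and a log2 fold change of 0.18. KDM3B, KDM4B and KDM5B were called lower by 0.18 to 0.22 on the log2 scale. The genes not called were KDM2A, KDM4A, KDM4C, KDM4D and KDM8. KDM8 had a log2 fold change of -0.46 with a 95% interval from -0.87 to -0.04 and an adjusted p of 0.0557 (edgeR, Benjamini-Hochberg). It was called without DMSO replicate B (-0.51) or AS1842856 replicate A (-0.54). With all libraries and a filter on a mean of at least 50 counts it was called too (-0.465, edgeR, Benjamini-Hochberg adjusted p = 0.0371).

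Among the 14 histone methyltransferase genes, 4 were called higher, 3 lower and 7 were not called. KMT5C (SUV420H2), which makes the di- and trimethylated forms of H4K20 in silent chromatin, had 15.7, 13.9 and 13.5 CPM in DMSO and 6.36, 5.78 and 6.62 CPM with AS1842856. All AS1842856 libraries were below all DMSO libraries, with a log2 fold change of -1.21 (standard error 0.12, edgeR, Benjamini-Hochberg adjusted p = 1.03e-18). KMT5B, the other gene for this step, had a log2 fold change of 0.03 with a 95% interval from -0.08 to 0.15. KMT5A, which places the first methyl group on H4K20, was called lower at -0.29. KMT5C went from 34.1% ± 2.71 to 18.1% ± 0.459 (SD, n = 3 per group) of the FPKM of KMT5B and KMT5C.

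EHMT2 (G9a), which methylates H3K9, rose from 83.0, 82.4 and 86.4 CPM in DMSO to 118, 120 and 128 CPM with AS1842856. The groups did not overlap, and the log2 fold change was 0.54 (standard error 0.04, edgeR, Benjamini-Hochberg adjusted p = 2.06e-25). EHMT1 (GLP), the partner with which G9a forms a dimer, had a log2 fold change of -0.06 with a 95% interval from -0.16 to 0.03. SUV39H1, which trimethylates H3K9, was called higher by 0.14 although its libraries overlapped, and its adjusted p of 0.0477 (edgeR, Benjamini-Hochberg) was 0.0718 with the replicate letter as a block. SUV39H2 was not called.

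EZH2, the catalytic subunit of Polycomb repressive complex PRC2, was the methyltransferase gene of highest level per length. It read 117, 121 and 124 CPM in DMSO and 106, 112 and 111 CPM with AS1842856, with no overlap and a log2 fold change of -0.13 (edgeR, Benjamini-Hochberg adjusted p = 0.00544). EZH1, its relative, had a log2 fold change of -0.16 that was not called (95% interval from -0.37 to 0.05). Most KMT2 genes encode H3K4 methyltransferases of the COMPASS family. Of the KMT2 genes, KMT2B and KMT2C were called higher by 0.30 and 0.18, and KMT2A, KMT2D and KMT2E were not called. KMT2C overlapped between groups, lost its call in DESeq2 (adjusted p = 0.0944) and without DMSO replicate B, DMSO replicate C or AS1842856 replicate B (0.0588 to 0.142), and has near-identical copies in the genome, so its counts are uncertain.

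Of the 9 histone acetyltransferase genes, 1 was called higher and 2 lower. KAT6B, a MYST family enzyme, had 34.8, 32.9 and 29.9 CPM in DMSO and 20.9, 21.7 and 22.1 CPM with AS1842856, with no overlap and a log2 fold change of -0.59 (standard error 0.08, edgeR, Benjamini-Hochberg adjusted p = 2.39e-12). KAT6A, its close relative, was near its DMSO level with a log2 fold change of -0.02 and a 95% interval from -0.10 to 0.06. KAT2A (GCN5), the acetyltransferase gene of highest level per length, read 61.5, 66 and 63.1 CPM in DMSO and 56.6, 55.4 and 57.3 CPM with AS1842856, a log2 fold change of -0.17 (edgeR, Benjamini-Hochberg adjusted p = 0.00413).

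CREBBP (CBP), a coactivator for many transcription factors, had 82.2, 84.5 and 78.8 CPM in DMSO and 90.2, 89.1 and 91.0 CPM with AS1842856. Its log2 fold change was 0.14 (edgeR, Benjamini-Hochberg adjusted p = 0.00745), and the adjusted p was 0.0764 without DMSO replicate C. EP300 (p300), its relative, had a log2 fold change of 0.09 that was called only without DMSO replicate A among the libraries left out in turn. KAT2B, KAT5, KAT7 and KAT8 were not called.

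Of the 11 zinc-dependent deacetylase genes, 3 were called higher, 5 lower and 3 were not called. HDAC11, the sole class IV enzyme, fell from 12.3, 13.3 and 11.4 CPM in DMSO to 6.66, 5.43 and 6.56 CPM with AS1842856. The groups did not overlap, and the log2 fold change of -0.997 (standard error 0.13, edgeR, Benjamini-Hochberg adjusted p = 7.01e-13), left 50.1% of the DMSO level. HDAC5, a class IIa enzyme that binds MEF2 factors, was at 7.06, 7.16 and 8.18 CPM in DMSO and at 3.12, 4.16 and 4.60 CPM with AS1842856. Its groups did not overlap, and the log2 fold change was -0.91 (standard error 0.16, edgeR, Benjamini-Hochberg adjusted p = 1.30e-07).

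HDAC9, of the same class as HDAC5, changed the other way. It had 33.2, 39.3 and 32.2 CPM in DMSO and 60.4, 59.8 and 53.8 CPM with AS1842856, and its log2 fold change was 0.74 (standard error 0.06, edgeR, Benjamini-Hochberg adjusted p = 9.08e-25). HDAC7, the class IIa gene of highest level, was called lower by 0.30, and HDAC4 had a log2 fold change of -0.02 with a 95% interval from -0.16 to 0.12. The summed FPKM of the 4 class IIa genes went from 18.9 to 17.3, while the share of HDAC9 went from 10.9% ± 1.11 to 19.9% ± 1.24 and that of HDAC7 from 71.8% ± 1.02 to 64.1% ± 0.505 (SD, n = 3 per group).

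The class I genes HDAC1 and HDAC2, which serve in the NuRD, SIN3 and CoREST corepressor complexes, were both called higher. HDAC1 had 242, 230 and 235 CPM in DMSO and 270, 264 and 263 CPM with AS1842856, a log2 fold change of 0.17 (edgeR, Benjamini-Hochberg adjusted p = 1.28e-05), and HDAC2 one of 0.22. HDAC3 and HDAC8 were not called. Of the class IIb genes, HDAC6, a tubulin deacetylase, was called lower by 0.17, a call lost in DESeq2 (adjusted p = 0.0638) and without DMSO replicate C (0.0752) or AS1842856 replicate C (0.0507). HDAC10, a polyamine deacetylase, was called lower by 0.49, a call lost in DESeq2 (adjusted p = 0.125) and without DMSO replicate A, DMSO replicate B, AS1842856 replicate B or AS1842856 replicate C (0.0593 to 0.105). HDAC10 shares exon bases on the same strand with MAPK12, which had 956% as many counts and a log2 fold change of -1.19, so the counts of HDAC10 are uncertain.

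Among the 6 sirtuin genes tested, 2 were called higher and 1 lower. SIRT5, a mitochondrial enzyme that removes succinyl and related groups, had 11.7, 12.4 and 11.1 CPM in DMSO and 7.62, 9.72 and 9.08 CPM with AS1842856, with no overlap and a log2 fold change of -0.40 (edgeR, Benjamini-Hochberg adjusted p = 0.00188). SIRT7, a nucleolar enzyme, had 35.3, 30.6 and 37.1 CPM in DMSO and 41.5, 46.3 and 43.2 CPM with AS1842856, a log2 fold change of 0.34 (edgeR, Benjamini-Hochberg adjusted p = 1.08e-06). It shares exon bases on the same strand with MAFG, which had 138% as many counts and a log2 fold change of 0.55, so the counts of SIRT7 are uncertain.

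SIRT6, which deacetylates histone H3, was called higher by 0.20, a call lost in DESeq2 (adjusted p = 0.0910) and without DMSO replicate B (0.138) or AS1842856 replicate B (0.101). SIRT1, a deacetylase of FOXO proteins among others and the sirtuin gene of highest level per length, read 62.7, 65.8 and 65.1 CPM in DMSO and 63.1, 62.7 and 59.3 CPM with AS1842856. These groups overlapped, and the log2 fold change of -0.06 had a 95% interval from -0.17 to 0.04. SIRT2 and SIRT3 were not called either, and SIRT3 shares exon bases with PSMD13, which had 1377% as many counts.

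For most of the genes not called, the 95% interval of the edgeR fit kept the change to a small size. Of these 26 genes, 18 had a 95% interval within 0.25 of 0 on the log2 scale and 5 had one within 0.15. The widest bound was 0.871, for KDM8. The fit estimates the variance of each gene partly from all other genes. An interval from a gene's own 3 libraries per group can therefore be wider. In 8 of the 26 the groups did not overlap, and in 2 called genes, SUV39H1 and KMT2C, they did. The strand used in counting is not given in the sources used here, and 32 of the 65 genes share exon bases with another gene, 9 of them with a gene of at least 50% as many counts. Those 9 were HDAC10, KAT5, KDM2B, KDM5A, KMT2E, SIRT2, SIRT3, SIRT7 and SUV39H2.

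Levels can be compared between genes only per length, in the deposited FPKM values, which divide by the summed length of all annotated exons of a gene. HDAC1 was highest at 59.1 ± 1.5 FPKM in DMSO (SD, n = 3), followed by KDM1A at 47.6 ± 1.88, DNMT1 at 34.8 ± 0.868 and EZH2 at 26.5 ± 0.741. The 3 libraries of each of these genes did not overlap those of the next. HDAC3 came next at 19.6 ± 0.806 FPKM. KDM5C and KDM3B followed at 17.7 FPKM each, and their libraries overlapped. Of the 63 genes, 15 had at least 10 FPKM, 55 at least 1 FPKM and 8 less than 1 FPKM, with a median of 4.27 FPKM. In 46 of the 62 pairs of neighbours in this order the libraries overlapped.

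The top of the order was the same with AS1842856, with HDAC1 at 66.7 ± 0.997 FPKM, KDM1A at 44.7 ± 0.969 and DNMT1 at 30.1 ± 0.647 (SD, n = 3). The next place was taken by KDM5C at 28.3 ± 0.555 FPKM, above EZH2 at 24.1 ± 0.698. HDAC2 had a lower FPKM than HDAC1 (16.1 against 59.1 in DMSO) although their CPM were alike (251 and 236), since its exons add up to 15461 bases against 3963 for HDAC1.

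**Figure D3:**
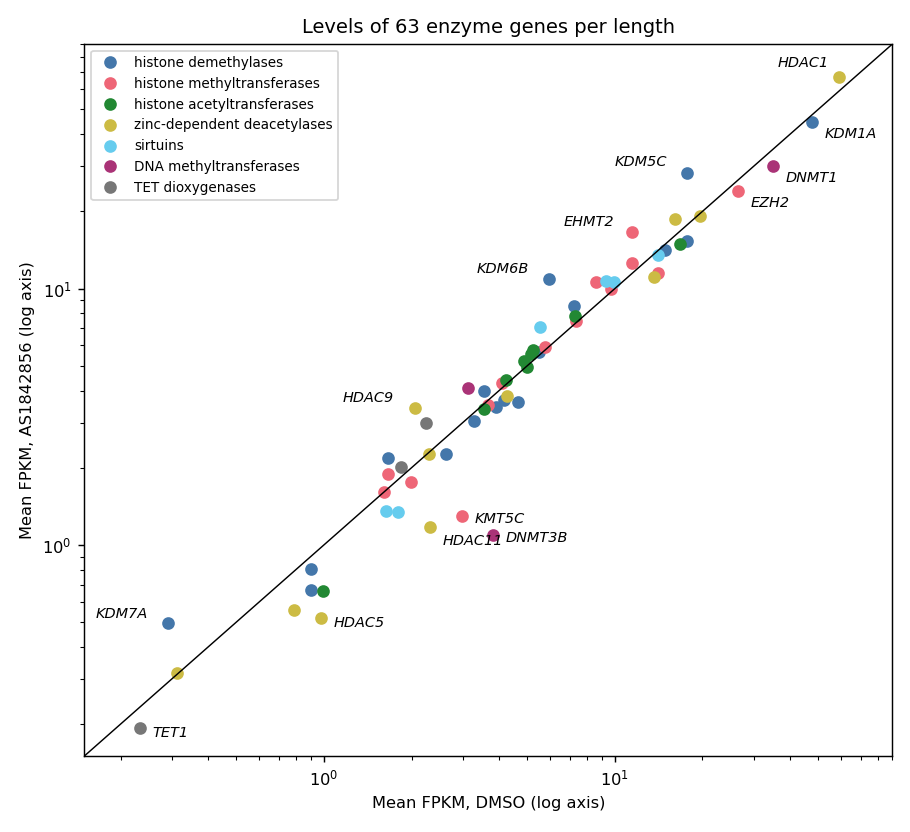
Mean FPKM in AS1842856 (y axis, log) against DMSO (x axis, log) for the 63 tested enzyme genes, coloured by family, with the line of equal level. HDAC1 is highest in both groups at 59.1 and 66.7 FPKM, KDM5C and KDM6B lie above the line, and DNMT3B, KMT5C, HDAC11 and HDAC5 lie below it.

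To ask whether the balance between close relatives shifted, the log2 ratio of FPKM was taken within each library for 24 pairs of related genes, a measure that does not depend on how libraries are scaled. In 16 pairs (66.7%) the libraries of the groups did not overlap. For CPM of single genes that share was 59.9% of all tested, and for ratios of other pairs it was not computed. Each of the 16 had the smallest exact two-sided permutation p that 3 against 3 libraries can give, 0.10. After Benjamini-Hochberg adjustment over the 24 pairs it was 0.15. No pair could therefore pass a threshold of 0.05 in this test. The shift was at least 0.5 in 8 of the 16 pairs, in each of which at least 1 gene is among those described above.

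DNMT3A to DNMT3B shifted by 2.19 on the log2 scale, from a ratio of 0.818 to 3.72. KMT5B to KMT5C shifted by 1.23 and KDM6A to KDM6B by -1.06. The HDAC4 to HDAC5 ratio shifted by 0.91 and the HDAC4 to HDAC9 ratio by -0.76, so that HDAC5 and HDAC9 moved apart on either side of HDAC4. The shifts of TET1 to TET3, EHMT1 to EHMT2 and KAT6A to KAT6B were -0.69, -0.60 and 0.57.

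The 8 pairs whose libraries overlapped were EZH1 and EZH2, SUV39H1 and SUV39H2, CREBBP and EP300, HDAC1 and HDAC2, KDM4A and KDM4C, KDM5A and KDM5B, KMT2C and KMT2D, and SIRT1 and SIRT2. Their shifts lay between -0.19 and 0.15. The ratio of HDAC1 to HDAC2 was 3.66 in DMSO and 3.56 with AS1842856.

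**Figure D4:**
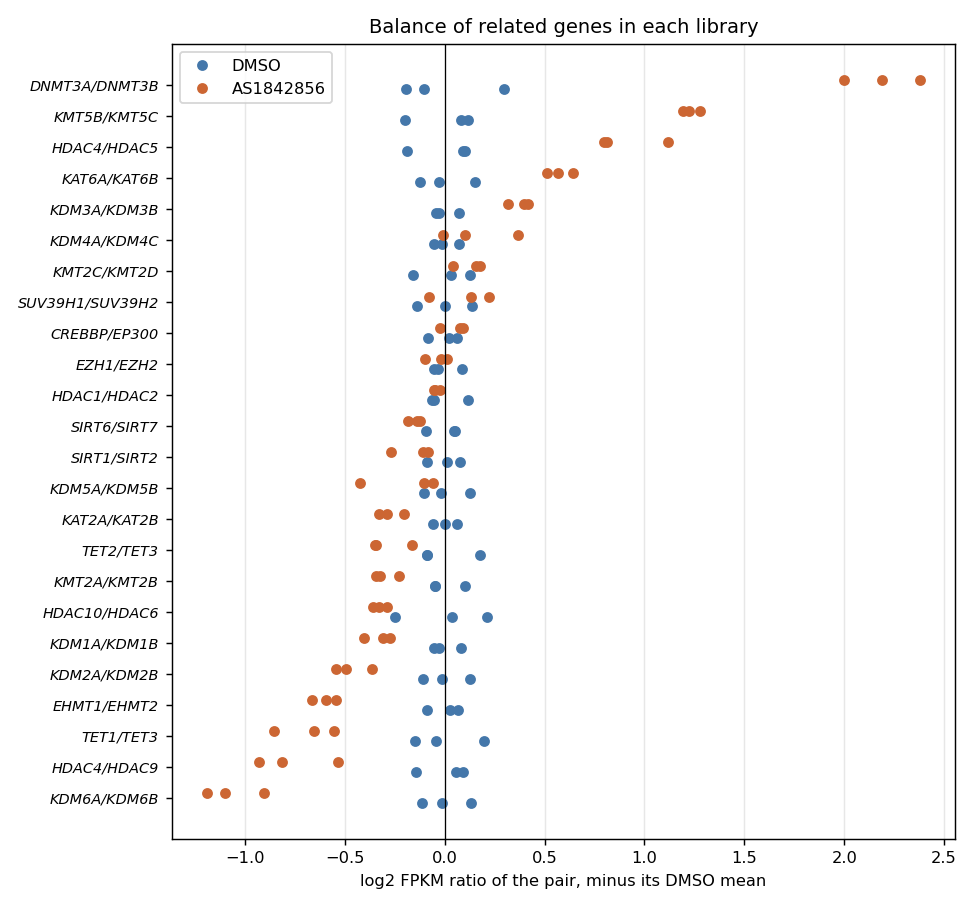
Log2 FPKM ratio of each of 24 pairs of related enzyme genes (y axis) in each of the 3 DMSO (blue) and 3 AS1842856 (orange) libraries, after subtraction of the pair's DMSO mean (x axis). The groups do not overlap in 16 pairs, with the largest shifts in DNMT3A/DNMT3B (2.19) and KMT5B/KMT5C (1.23).

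The enzymes act within complexes and draw on shared cofactors, and genes for these were examined as further lists. Of the 119 such genes tested that are not among the 65, 67 (56.3%) were called, 33 higher and 34 lower, close to the 56.0% of all genes tested. Of the 9 PRC2 partner genes, 4 were called higher and 4 lower. JARID2, which helps to bring PRC2 to its targets, read 28.7, 23.5 and 23.0 CPM in DMSO and 49.1, 56.5 and 53.7 CPM with AS1842856, and its log2 fold change was 1.08 (standard error 0.07, edgeR, Benjamini-Hochberg adjusted p = 9.62e-36). PHF19, which belongs to the other form of PRC2, was called lower at -0.49. The core subunit genes differed, with SUZ12 called higher at 0.22 and EED not called at -0.10.

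Of the 13 COMPASS partner genes, 2 were called higher and 5 lower, with the largest changes in CXXC1 (0.34) and PSIP1 (-0.69). Of the 22 deacetylase complex genes, 6 were called higher and 7 lower. RCOR2, a CoREST scaffold for KDM1A and HDAC1, had the largest rise at 1.48 on the log2 scale but a low level, with 0.484 to 1.82 CPM in DMSO and 2.13 to 3.96 CPM with AS1842856. TBL1X, a subunit of the NCOR complex of HDAC3, had the largest fall at -0.65. Of the 28 acetyltransferase complex genes, 8 were called higher and 5 lower, with the largest changes in MSL3 (0.49), a partner of KAT8, and JADE3 (-1.16), a scaffold of KAT7.

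Among 20 other histone methyltransferase genes, 7 were called higher and 5 lower, with the largest changes in PRDM2 (0.62) and SETDB2 (-0.92). Among 6 tested of 9 other demethylase genes, PHF8 (0.18) was the only one called. Of 15 tested DNA methylation partners and readers, a list that includes DNMT3A and DNMT3B, 5 were called higher and 4 lower. ZBTB33, a reader of methylated DNA, had the largest rise at 0.40 and DNMT3B the largest fall. UHRF1, which brings DNMT1 to newly made DNA, was chosen after its values were seen and fell from 202, 207 and 201 CPM to 136, 137 and 132 CPM, a log2 fold change of -0.59 (edgeR, Benjamini-Hochberg adjusted p = 1.65e-35).

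Of 10 genes of the metabolism of S-adenosylmethionine, acetyl-CoA and NAD, the cofactors of these enzymes, 1 was called higher and 5 lower. Those lower included MAT2A (-0.54 on the log2 scale), which makes S-adenosylmethionine, and NNMT, which uses it up. NAMPT, the rate-limiting enzyme of NAD salvage on which sirtuins depend, read 313, 323 and 316 CPM in DMSO and 568, 569 and 545 CPM with AS1842856, and its log2 fold change was 0.82 (standard error 0.03, edgeR, Benjamini-Hochberg adjusted p = 1.36e-63). NNMT, which methylates nicotinamide, fell from 191, 190 and 180 CPM to 81.2, 85.5 and 84.1 CPM, and its log2 fold change was -1.16 (standard error 0.04, edgeR, Benjamini-Hochberg adjusted p = 1.48e-75).

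Several of these genes, EZH2, DNMT1 and UHRF1 among them, are more abundant in dividing cells. Of 22 proliferation genes, 18 were called lower and 1 higher, with a median log2 fold change of -0.28. MCM5 had the largest fall at -0.60 and E2F1 was the gene called higher at 0.10. The log2 fold changes of DNMT1 (-0.21) and EZH2 (-0.13) were smaller in size than that median, and that of UHRF1 (-0.59) was larger. That of DNMT3B (-1.81) was larger in size than that of any of the 22. The part of proliferation in the enzyme values was not tested.

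**Figure D5:**
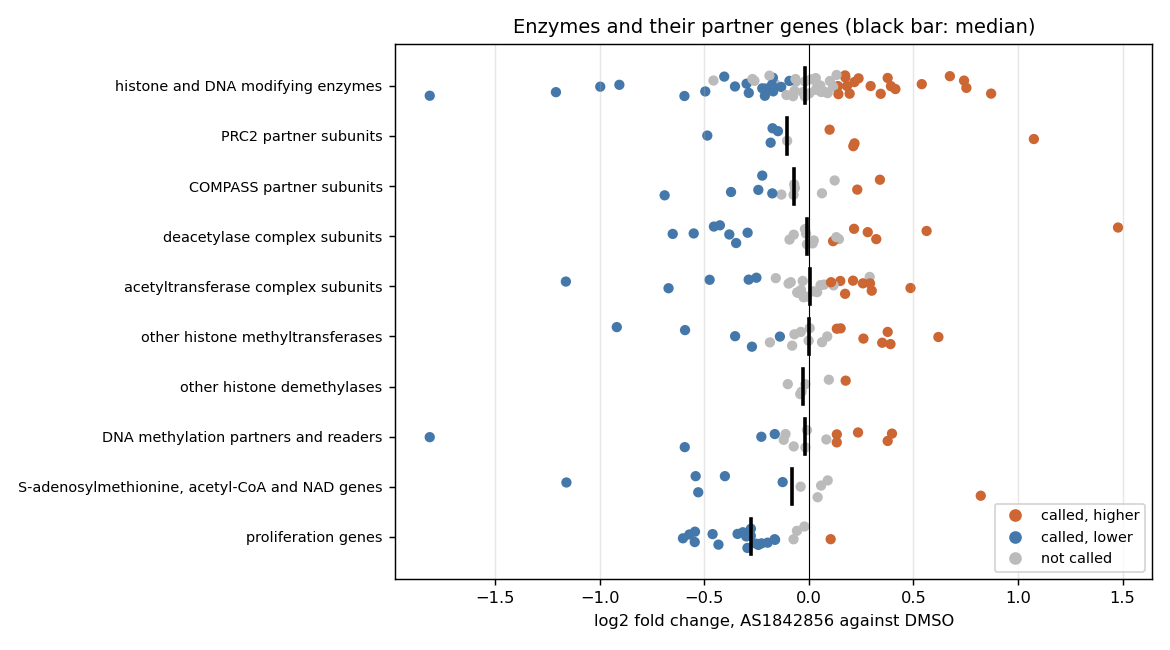
Log2 fold change with AS1842856 against DMSO (x axis) of the 63 tested enzyme genes and of the genes in each partner, cofactor and proliferation list (y axis). Each point is a gene (orange called higher, blue called lower, grey not called) and black bars are medians, of which that of the proliferation genes, -0.28, lies farthest from 0.

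Since AS1842856 blocks DNA binding by FOXO1, the promoters of the enzyme genes were searched for the core of the FOXO site, GTAAACA, on both strands. RefSeq windows on GRCh38 from 250 bases before to 50 bases after each start site were used. For the enzymes, 97 windows of 61 of the 65 genes were searched, and none of HDAC5, KAT6A, KAT8 and SIRT7. The absence of these genes is not evidence of a failed match. The set of all windows was not matched to the enzyme windows. The core was in 3 of the 97 windows (3.09%) and in 3.42% of all 35116 windows. The genes were EZH1, KDM2B and TET2, of which KDM2B alone was called. Their sequences around the core are given 5′ to 3′ on the strand of the gene, with the core or its reverse complement in capitals.
EZH1, chr17:42744991-42745020, minus strand: gggatggagggtgagtgaGTAAACAagcct
KDM2B, chr12:121580250-121580336, minus strand: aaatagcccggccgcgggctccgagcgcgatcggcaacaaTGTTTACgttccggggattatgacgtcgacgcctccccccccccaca
TET2, chr4:105145833-105145889, plus strand: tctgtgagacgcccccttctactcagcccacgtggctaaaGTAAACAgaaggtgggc

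None of the 10 enzymes called with a change of at least 0.5 had the core in a searched window. As the core was in only 3.42% of all windows, its absence from so few genes carries little information. Only exact matches within these short windows were counted. HDAC5 was among the genes with no searched window. The TCF/LEF core CTTTGAT was in no window of the enzyme genes and in 2.62% of all windows. The E2F site TTTGGCGC was in 1 enzyme window (1.03%), that of EZH2, a known E2F target, and in 0.652% of all windows. The other E2F form, TTTCCCGC, was in 2 windows (2.06%), of KDM1B and SIRT6, and in 1.63% of all. CCAAT was in 28 windows (28.9%), of 22 genes, against 34.6% of all. Of the enzymes called at 0.5 or more, DNMT3B, KMT5C, HDAC9 and KAT6B had it, and EHMT2, HDAC11, KDM5C, KDM6B and KDM7A did not. The EZH2 stretch is shown because it holds the E2F site, in capitals, beside the start of the gene.
EZH2, chr7:148884273-148884330, minus strand: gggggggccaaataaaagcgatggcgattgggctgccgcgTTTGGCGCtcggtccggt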

How the data were processed

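RNA was measured by RNA-Seq in BT549 cells, with 3 DMSO and 3 AS1842856 libraries grouped by the sample labels. The authors deposited raw counts per gene and FPKM values per library, which are divided by exon length and library size. The paper names STAR for mapping, while the submitters' processing notes list CASAVA, Bowtie 0.12.2 and GRCh38. The counting tool and strand are not given in the sources used here. All 58735 gene identifiers of the count table are in GENCODE 29 (GRCh38), which gave symbols, positions and overlaps.

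edgeR 4.0.16 under R 4.3.3 was applied to the counts, using filterByExpr (minimum count 10, minimum total count 15), TMM, glmQLFit with robust estimation, glmQLFTest and Benjamini-Hochberg adjustment over 14338 genes with a threshold of 0.05. The standard error is the size of the log2 fold change divided by the square root of F. The common biological coefficient of variation was 0.0374 at 15289500 to 22981832 counts per library. Counting intervals treat reads as independent, and reads without molecular identifiers are not. Replicates differed by more than sampling noise (chi-square per degree of freedom 2.38 to 3.28).

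Alternatives were DESeq2 1.42.0, its size factors, library totals, other filters, the replicate letter as a block, each library left out, and limma 3.58.1 on log2(FPKM + 1) and log2(FPKM + 0.1). Scripts were tested on simulated data. The enzymes, lists, pairs, motifs and tests were chosen with earlier results of these data known. Shares of summed FPKM were chosen after the members' values were seen. Values per library were given for enzymes called at 0.5 or more with no overlap, and for the largest called rise and fall and the highest FPKM of each family. Of each partner, cofactor and proliferation list, the largest called rise and fall were named. SUZ12, EED and UHRF1 were added after their values were seen, and MAT2A was named outside this rule too. Protein sequences were not used here.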

Additional observations from a re-analysis of the deposited data

How the results depend on the processing

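Of the 63 enzymes, 37 were called, and 25 to 37 were called under every other scaling, filter, test, unit or left-out library tried. DESeq2 called 31 of 64 (48.4%) against 36.8% of the 18482 genes with an adjusted p, and edgeR with no filter 35 of 64 (54.7%) against 28.4% of all. limma on log2(FPKM + 1) and log2(FPKM + 0.1) called 28 of 60 each (46.7%) against 50.5% and 50.3%, and without the FPKM filter 26 and 25 of 64 (40.6% and 39.1%) against 25.8% and 26.2%. Over the 14338 genes of the filtered edgeR fit, DESeq2 called 49.2% of the enzymes against 46.1%, and unfiltered limma 41.3% and 39.7% against 42.6% and 42.9%. An adjusted p under 0.01 left 30 enzymes, and an adjusted p under 0.05 with a log2 fold change of 0.5 or more in size left 10. Of the partner, cofactor and proliferation genes 88 were called, DNMT3A and DNMT3B among them, and 72 to 90 under the alternatives. With each library left out in turn, 31 to 37 enzymes were called, 15 to 18 higher and 15 to 19 lower. Their median log2 fold change stayed between -0.041 and 0.0030, with the positive value without DMSO replicate B, and 16 to 20 of the 24 related pairs did not overlap.

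The replicate letters did not pair the libraries (correlations of the deviations of same-lettered libraries 0.042, -0.012 and -0.0033). With the replicate block 36 enzymes were called, and the block changed no other call than that of SUV39H1 among the enzymes.

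Over the 22 enzymes described per library, 350 results under 16 alternatives held 14 in which a call was lost and none in which the direction turned. These were KDM1A in 7, CREBBP in 5 and KDM7A in 2, the last with limma on unfiltered FPKM, where its log2 fold change was 0.21 with a pseudocount of 1 and 0.59 with 0.1. The cause was not tested. Among the other enzymes, the call was lost in 14 alternatives for SUV39H1, 9 for HDAC10, 8 for KMT2C, 7 each for HDAC6 and KDM6A, 6 for SIRT6, 4 each for KDM4B and KDM5B and 1 for KDM3A, so calls near the threshold are uncertain. Leaving out 1 library ended the call of KDM6A (without DMSO B, DMSO C, AS1842856 A or AS1842856 C, edgeR adjusted p 0.0675 to 0.110), HDAC6 (DMSO C or AS1842856 C, 0.0507 to 0.0752), HDAC10 (DMSO A, DMSO B, AS1842856 B or AS1842856 C, 0.0593 to 0.105), SIRT6 (DMSO B or AS1842856 B, 0.101 to 0.138), KMT2C (DMSO B, DMSO C or AS1842856 B, 0.0588 to 0.142) and SUV39H1 (all but AS1842856 A, 0.0541 to 0.223), and TET2 was called without DMSO B (0.0420). TET1, KDM7A, KDM4D, KDM8 and HDAC10 were each under 5 CPM in DMSO, and the part of depth in their values was not tested.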
